A study of Mus musculus with 2 samples.

Results

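The genes described here build the sarcomere, the contractile unit of heart and skeletal muscle, together with its Z-disc, its M-band and the filaments that tie neighbouring sarcomeres together. They are a fixed list of 39 named genes, among 21368 genes named on the array, and a gene's value is that of its brightest probe well above background on both arrays. Of the 39 genes, 37 had such a probe and are called measured. Mybphl and Tnni1 were well above background in the control heart only, so a bound stands in place of their ratio. The 39 genes had 66 probes, and the 37 measured ones were read through 63 usable probes: 22 of the 37 measured genes were read by 1 usable probe and 15 by more than 1.

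Total RNA of mouse heart was measured on 1-colour Agilent expression arrays, 1 array for each of 2 groups. The control heart was of C57BL6 background. The other heart came from the strain B6.Cg-Tg (CAG-WRN*K577M), line 5025Wcl/Mmmh, of the same background, called WRN-K577M here, which carries a form of the RecQ DNA helicase WRN with the K577M substitution under the ubiquitously active CAG promoter. The stated aim was to look for signalling behind remodelling of the heart. The labels do not explain the letters ND in both titles, and the age of the mice and any pooling of hearts are not stated in the sources used here. With 1 array per group there is no replicate and no test between the genotypes, and any other difference between the samples cannot be told apart from genotype.

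In the sarcomere, myosin of the thick filament pulls on actin of the thin filament. Calcium binding to troponin shifts tropomyosin along the thin filament and so lets myosin bind. Thin filaments are anchored in the Z-disc by alpha-actinin, thick filaments are cross-linked in the M-band by myomesins, and titin spans from the one to the other. Some of these proteins, such as troponin T and troponin I, come as a family in which the heart, slow skeletal muscle and fast skeletal muscle each use their own member. Others, such as the troponin C of heart and slow muscle, are shared. The developing heart uses some of the slow skeletal forms.

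A level is the log2 signal of a probe less the log2 of its array's 75th percentile. Subtracting the control level from the WRN-K577M level gives the log2 ratio. Between spots of 1 probe printed many times on the array the log2 ratio varied with an SD of 0.13, over 227 such probes, so that 2 SD are 0.25 on the log2 scale. The software's error estimate for that ratio ran from 0.20 to 0.30 over the measured sarcomere genes. Both describe measurement only. Since probes bind their targets unequally, a level is compared between arrays for the same probe and never between genes.

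The windows before the transcription start are shown for 5 of the genes: Pdlim3 and Mybphl because one is at least 2-fold higher and the other has the larger bound, the neighbours Tnnt1 and Tnni3 because their ratios differed, and Mybpc3 because its window held a match to the MEF2 site. Each line gives 250 bases ending just before the start, 5′ to 3′ on the gene's strand, from the RefSeq table on build GRCm38.p6, with matches to the motifs named below in capitals. The windows lie at chr8:45885237-45885486 on the plus strand for Pdlim3, chr3:108364661-108364910 on the plus strand for Mybphl, chr7:4515976-4516225 on the minus strand for Tnnt1, chr7:4522529-4522778 on the minus strand for Tnni3 and chr2:91117894-91118143 on the plus strand for Mybpc3.
Pdlim3: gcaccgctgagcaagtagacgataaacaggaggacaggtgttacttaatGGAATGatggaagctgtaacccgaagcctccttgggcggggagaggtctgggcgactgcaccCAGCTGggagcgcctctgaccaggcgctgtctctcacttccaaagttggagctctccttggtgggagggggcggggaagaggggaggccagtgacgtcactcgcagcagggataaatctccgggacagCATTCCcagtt
Mybphl: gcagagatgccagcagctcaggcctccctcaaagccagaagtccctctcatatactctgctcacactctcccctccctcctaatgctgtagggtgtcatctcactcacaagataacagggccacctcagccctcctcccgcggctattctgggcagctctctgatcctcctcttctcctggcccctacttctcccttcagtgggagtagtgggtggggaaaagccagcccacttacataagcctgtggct
Tnnt1: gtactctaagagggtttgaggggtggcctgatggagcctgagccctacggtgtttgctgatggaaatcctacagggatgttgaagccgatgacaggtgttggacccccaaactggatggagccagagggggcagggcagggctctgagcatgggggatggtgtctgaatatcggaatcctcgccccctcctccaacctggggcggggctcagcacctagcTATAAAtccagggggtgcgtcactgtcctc
Tnni3: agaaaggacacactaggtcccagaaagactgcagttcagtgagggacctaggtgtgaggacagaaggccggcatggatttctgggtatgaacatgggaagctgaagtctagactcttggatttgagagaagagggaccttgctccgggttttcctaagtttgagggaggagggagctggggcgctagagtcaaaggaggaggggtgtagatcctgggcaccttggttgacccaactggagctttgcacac
Mybpc3: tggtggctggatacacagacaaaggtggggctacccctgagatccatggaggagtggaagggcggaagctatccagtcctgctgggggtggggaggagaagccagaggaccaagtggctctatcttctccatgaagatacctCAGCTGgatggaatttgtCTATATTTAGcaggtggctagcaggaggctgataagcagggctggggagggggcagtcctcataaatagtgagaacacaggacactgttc

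The motifs searched, on both strands, were the MEF2 site, the CArG box of serum response factor, the MCAT element CATTCC, the TATA box TATAAA and the E-box in its form CAGCTG. The window of Pdlim3 held the MCAT element at 201 to 196 and at 11 to 6 bases before the start and the E-box at 139 to 134 bases. In Tnnt1 the TATA box lay 30 to 25 bases before the start, in Mybpc3 the MEF2 site lay at 90 to 81 and the E-box at 108 to 103 bases, and the windows of Mybphl and Tnni3 held none of these letters. Over the 43 windows of the 34 sarcomere genes in the table, 14.0% held the MEF2 site against 2.92% of all 32851 windows of that length. The CArG box was found in 9.30% against 1.47%, the E-box in 23.3% against 13.0%, the MCAT element in 16.3% against 12.6% and the TATA box in 9.30% against 12.4%. The MEF2 site was in the windows of Mybpc3, Myom3, Synpo2, Synpo2l and Ttn, whose log2 ratios were 0.21, -0.19, -0.59, 0.18 and -0.16, so genes with this match lay on both sides of 0. A match describes the letters in the window and shows no binding.

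Among the measured sarcomere genes, Myom2 and Pdlim3 were the ones at least 2-fold higher in the WRN-K577M heart, and Mybphl, which has a bound and no ratio, was at least 92.7-fold lower. Among these 37, 2 had levels at least 2-fold higher, against 1.94% of all 14003 measured genes, and 0 were at least 2-fold lower, against 3.46%. In either direction these are 2 of 37 genes beside 5.39% of all. The 37 leave out Mybphl and Tnni1, whose WRN-K577M levels did not stand well above background, so the 0 covers only genes detected on both arrays, and with no filter on dim probes 2 genes, Mybphl and Tnni1, were at least 2-fold lower. At 1.5-fold, 6 were higher and 3 lower, beside 6.76% and 9.16% of all measured genes. The 6 include Cmya5, whose other probe had a ratio of -1.57, and the 3 include Synpo2, whose other probes had ratios of -0.037 and 0.14. Without these genes, a choice made after seeing the data, 5 were higher and 2 lower. The median log2 ratio of the sarcomere genes was 0.066, and that of all measured genes was 0.020. The first lay below 0 with quantile normalization, cyclic loess and the probe mean. A ratio above 0 was found for 21 of the 37 genes (56.8%) and for 52.4% of all measured genes, and with quantile normalization or cyclic loess the number was 17 or 16. For 18 of the 37 genes the ratio lay within 2 SD between spots, as it did for 54.3% of all measured genes.

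**Figure D1:**
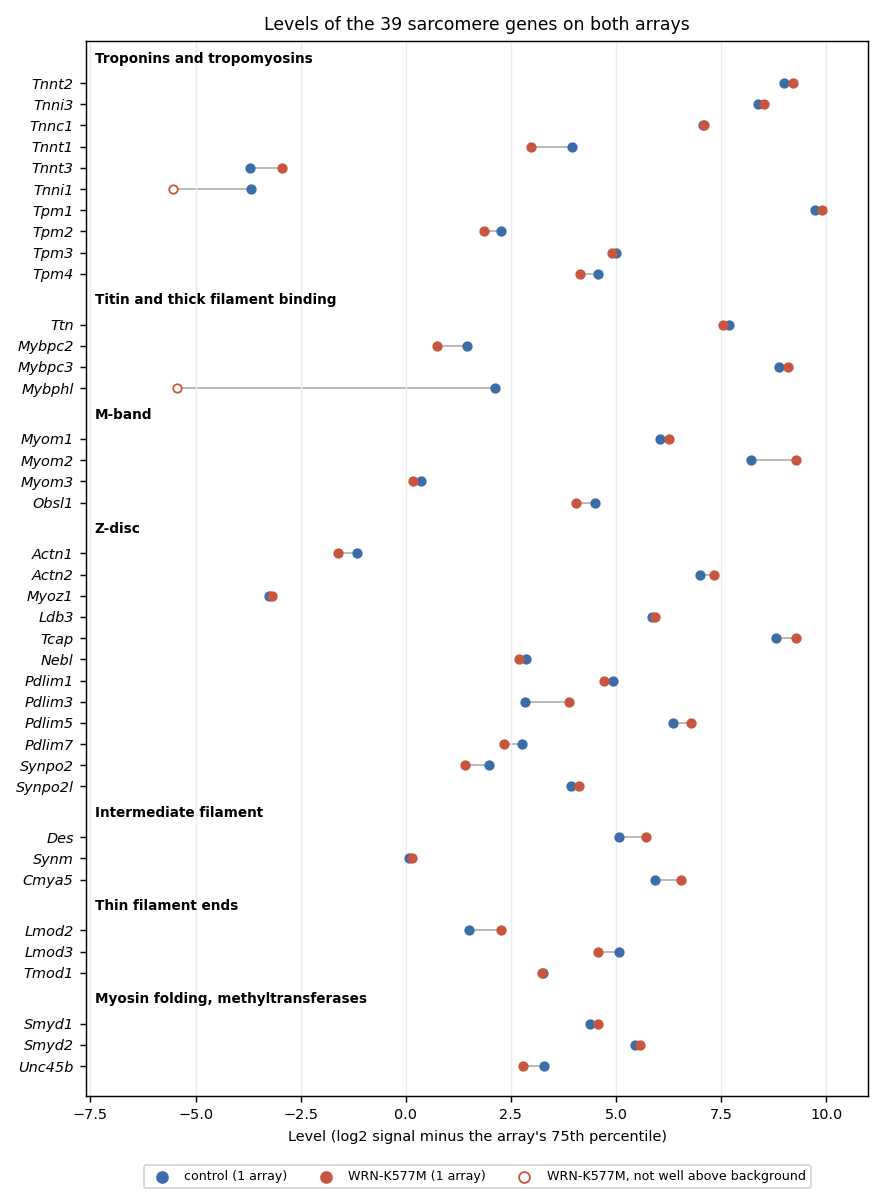
Level of each of the 39 sarcomere genes (log2 signal minus the array's 75th percentile) in the control heart and the WRN-K577M heart, 1 array each, grouped by role. Open points are not well above background. For 18 of the 37 measured genes the points differ by less than 2 SD between spots, Myom2 and Pdlim3 lie further right in the WRN-K577M heart, and Mybphl has no filled WRN-K577M point.

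The troponins and tropomyosins regulate the thin filament, and here the cardiac forms were near equal on the arrays. Slow troponin T had a lower level in the WRN-K577M heart, and slow troponin I lay near background. Tnnt2, cardiac troponin T, which ties the troponin complex to tropomyosin, had levels of 8.99 (control) and 9.21 (WRN-K577M), a log2 ratio of 0.21. Tnni3, cardiac troponin I, the inhibitory subunit, had levels of 8.37 and 8.52 and a ratio of 0.15, which was -0.00047 with cyclic loess. Tnnc1, the calcium-binding troponin C shared by heart and slow muscle, had levels of 7.07 and 7.10 with a ratio of 0.026 that turned below 0 under 4 of 6 other scalings. All these ratios lie within 2 SD between spots of 0.

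The slow skeletal troponin T gene Tnnt1 stood apart from its cardiac relative. Its level was 3.95 (control) and 2.99 (WRN-K577M), a log2 ratio of -0.97 with a software error of 0.20, which is 51.1% of the control signal. A second, dimmer probe of Tnnt1 had a ratio of -1.23. The ratio of the brighter probe lies just inside the 2-fold threshold and passed it with cyclic loess, the median of all probes, the probe mean and the deposited matrix, with values from -1.10 to -0.94 over all alternatives. Tnni1, slow skeletal troponin I, which the fetal heart also uses, had a control level of -3.68 and a WRN-K577M level of -5.54 that did not stand well above background. It was at least 1.67-fold lower there, where the bound compares the control level with -4.42, the lowest level there of any probe that stood well above background. On the log2 scale this bound is 0.74, and the software's error for the difference of this probe was 0.89, which is larger. The fast skeletal troponin T gene Tnnt3 differed in the other direction, with levels of -3.72 and -2.95, a ratio of 0.76 and an error of 0.30. Its second probe had a ratio of 0.93, and after normexp background correction the ratio was 0.47. Both probes of Tnnt3 lie low on the arrays, where the relative error is larger.

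Among the tropomyosins, the coiled coils that lie along actin, the alpha form of the heart was near equal and the other forms had equal or lower levels. Tpm1, alpha-tropomyosin, had levels of 9.72 (control) and 9.89 (WRN-K577M), a ratio of 0.16 that lay below 0 under 2 of 6 other scalings. The 5 probes of Tpm1, not all annotated to the same transcript, ranged from -0.71 for the dimmest to 0.19. Tpm2, beta-tropomyosin of skeletal and smooth muscle, had levels of 2.27 and 1.85 with a ratio of -0.41, and its second probe gave -0.48. Tpm4, a tropomyosin of the cytoskeleton and smooth muscle, had levels of 4.58 and 4.13 and a ratio of -0.45. Tpm3, which gives the slow skeletal form and also non-muscle forms, had levels of 5.005 and 4.91 with a ratio of -0.095, within 2 SD between spots. Tpm2, Tpm3 and Tpm4 kept a ratio below 0 under all 6 other scalings.

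Titin and the myosin-binding proteins bind along the thick filament. Ttn, titin, had levels of 7.69 and 7.53 at its brightest probe, and its 4 probes gave ratios between -0.16 and 0.016. Mybpc3, cardiac myosin-binding protein C, which tunes cross-bridge formation, had levels of 8.87 and 9.08 and a ratio of 0.21 that was -0.022 with quantile normalization. Its fast skeletal relative Mybpc2 had levels of 1.45 and 0.73, a ratio of -0.72.

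Mybphl, a relative of myosin-binding protein H expressed in the atria, had the larger of the bounds. Its control level was 2.12. The WRN-K577M array gave a measured -5.44 that did not stand well above background, so Mybphl was at least 92.7-fold lower there. Of the 9 other atrial markers listed, 7 were measured with a median log2 ratio of -2.93, 5 of them were at least 2-fold lower, and 1 more, Fgf12, was detected on the control array alone. Sln had levels of 6.14 and -3.27, and Myl7 of 5.13 and -2.26. The list was not uniform: 2 of the 7 measured, Pam and Nr2f2, lay above 0, with ratios of 0.023 and 0.12. The summed linear signal of the 10 atrial genes, in units of the array's 75th percentile, was 669 (control) and 166 (WRN-K577M). Most of the WRN-K577M sum came from Nppa, which had levels of 8.32 (control) and 7.26 (WRN-K577M) and a ratio of -1.06. Bmp10 was detected on neither array. In tissue RNA, fewer cells of a type and less RNA per cell cannot be told apart, and the part of atrial tissue in the level of Mybphl was not tested.

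The M-band held 1 of the 2 genes at least 2-fold higher. Myom2, myomesin 2, a cross-linker of thick filaments found in adult heart and fast muscle, had levels of 8.21 (control) and 9.28 (WRN-K577M), a log2 ratio of 1.06 (2.09-fold) with an error of 0.20, read by 1 probe. The ratio was 0.94 with quantile normalization and 0.90 with cyclic loess, short of 2-fold and below Pdlim3 in both. Myom1, myomesin 1 of all striated muscle, had levels of 6.05 and 6.27 with a ratio of 0.22. Myom3, a myomesin known from slow and intermediate muscle fibres, had levels of 0.35 and 0.16 with a ratio of -0.19. Obsl1, obscurin-like 1, which binds titin and myomesin in the M-band, had levels of 4.50 and 4.06 and a ratio of -0.45, with -0.68 at its dimmer probe. The myomesin genes therefore did not share a ratio: Myom1 differed from Myom2 by -0.85 and Myom3 by -1.25, with an error of 0.29 for each difference.

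In the Z-disc, PDZ-LIM genes lay on both sides of 0. These proteins bind alpha-actinin through the PDZ domain. Pdlim3, also called ALP, had levels of 2.84 (control) and 3.88 (WRN-K577M), a ratio of 1.05 (2.07-fold) with an error of 0.20. The ratio was 0.99 after normexp, with cyclic loess it was also just under 1, and with the deposited matrix likewise, so the gene sits at the 2-fold line. It was read by 1 probe. Pdlim5, also called ENH, had levels of 6.36 and 6.78 with a ratio of 0.42, while a dim probe of it gave 0.0090. Pdlim1, also called CLP36, had levels of 4.94 and 4.72 with a ratio of -0.22. The brightest probe of Pdlim7, also called enigma, had levels of 2.77 and 2.33 and a ratio of -0.44, and its 3 probes ranged from -0.44 to 0.29, so no direction holds for the gene as a whole.

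The other Z-disc genes differed less than Pdlim3. Actn2, the sarcomeric alpha-actinin that anchors actin, had levels of 6.99 and 7.33 and a ratio of 0.34. The non-muscle alpha-actinin gene Actn1 had levels of -1.15 and -1.62 with a ratio of -0.47, which was -0.24 after normexp. Tcap, telethonin, which caps the ends of titin at the Z-disc, had levels of 8.79 and 9.28 with a ratio of 0.49. Ldb3, also called ZASP or cypher, Synpo2l, Nebl, nebulette, and Myoz1, a calsarcin of fast muscle, had ratios between -0.16 and 0.18, inside 2 SD between spots. Synpo2, synaptopodin 2 of Z-discs and smooth muscle, had levels of 1.99 and 1.40 with a ratio of -0.59 at its brightest probe, while its dimmer probes gave -0.037 and 0.14.

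Several of these genes are also expressed outside cardiac muscle. Markers of smooth muscle, fibroblasts, endothelium and red blood cells were read beside them. Without Des and Synpo2, which belong to both lists, 8 smooth muscle markers were listed, 7 were measured with a median log2 ratio of -0.93, and 6 of the 7 lay below 0. Acta2 was the one above 0, with 0.85. Over the whole list of 10, with Des and Synpo2, the summed signal was 161 (control) and 156 (WRN-K577M). That sum holds Des, with a ratio of 0.66, and Acta2, which were both higher in WRN-K577M. Lmod1 was detected on the control array alone, with levels of -4.27 (control) and -4.78 (WRN-K577M). Both levels lay near background, and its bound was 1.11-fold. The 8 fibroblast markers had a median of -1.62, and 5 of them were at least 2-fold lower. Pdgfra and Tcf21 were not among the 5, with ratios of -0.18 and 0.25. Their summed signal was 299 (control) and 219 (WRN-K577M), most of it from Dcn, which had a ratio of -0.059. The 4 erythroid markers measured were all at least 2-fold lower, and the summed signal of the erythroid list was 820 (control) and 192 (WRN-K577M). The 6 endothelial markers, all measured, had a median of -0.0023, with 3 above 0 and 0 past 2-fold in either direction. The part of these cells in the levels of the sarcomere genes was not tested.

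The intermediate filament genes link Z-discs sideways. Des, desmin, the main intermediate filament of muscle, had levels of 5.06 (control) and 5.72 (WRN-K577M), a ratio of 0.66 (1.58-fold). Its probe was printed many times, and the 9 spots used gave ratios from 0.61 to 0.70 with an SD of 0.035, so all spots lay above 0. Synm, synemin, a partner of desmin, had levels of 0.069 and 0.16 at its brightest probe, and its 5 probes ranged from -0.12 to 0.43.

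Cmya5, myospryn, a large protein at the Z-disc edge that binds desmin, was read by 2 probes that disagreed. The brighter one had levels of 5.93 and 6.54, a ratio of 0.61. The other had levels of 3.05 and 1.48, a ratio of -1.57. Both stood well above background on each array, and both are annotated to the same transcript, and the difference of 2.18 on the log2 scale is larger than the software's error of about 0.20 for each. No direction is given for Cmya5. It was the widest disagreement among the 5 measured genes whose probes differed by 0.5 or more, the others being Tpm1, Pdlim7, Synpo2 and Synm.

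At the thin filament ends, the leiomodins differed in opposite directions. Lmod2, the leiomodin of heart muscle that lengthens thin filaments, had levels of 1.51 (control) and 2.25 (WRN-K577M), a ratio of 0.75 (1.68-fold). Lmod3, the leiomodin known for skeletal muscle and also expressed in heart, had levels of 5.07 and 4.58 with a ratio of -0.49. The difference between them, -1.24 with an error of 0.29, lay between -1.30 and -1.21 over all alternatives. Tmod1, tropomodulin, which caps the pointed end, had levels of 3.27 and 3.25.

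Factors that fold or methylate sarcomere proteins differed by less than 1.5-fold. Unc45b, the muscle chaperone of the myosin head, had levels of 3.28 and 2.78 with a ratio of -0.50. Smyd1, a muscle methyltransferase that works with it in myosin assembly, had levels of 4.37 and 4.57 and a ratio of 0.20, and its second probe gave -0.27. Smyd2, a methyltransferase with a role in keeping titin stable, had levels of 5.46 and 5.57 with a ratio of 0.11.

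**Figure D2:**
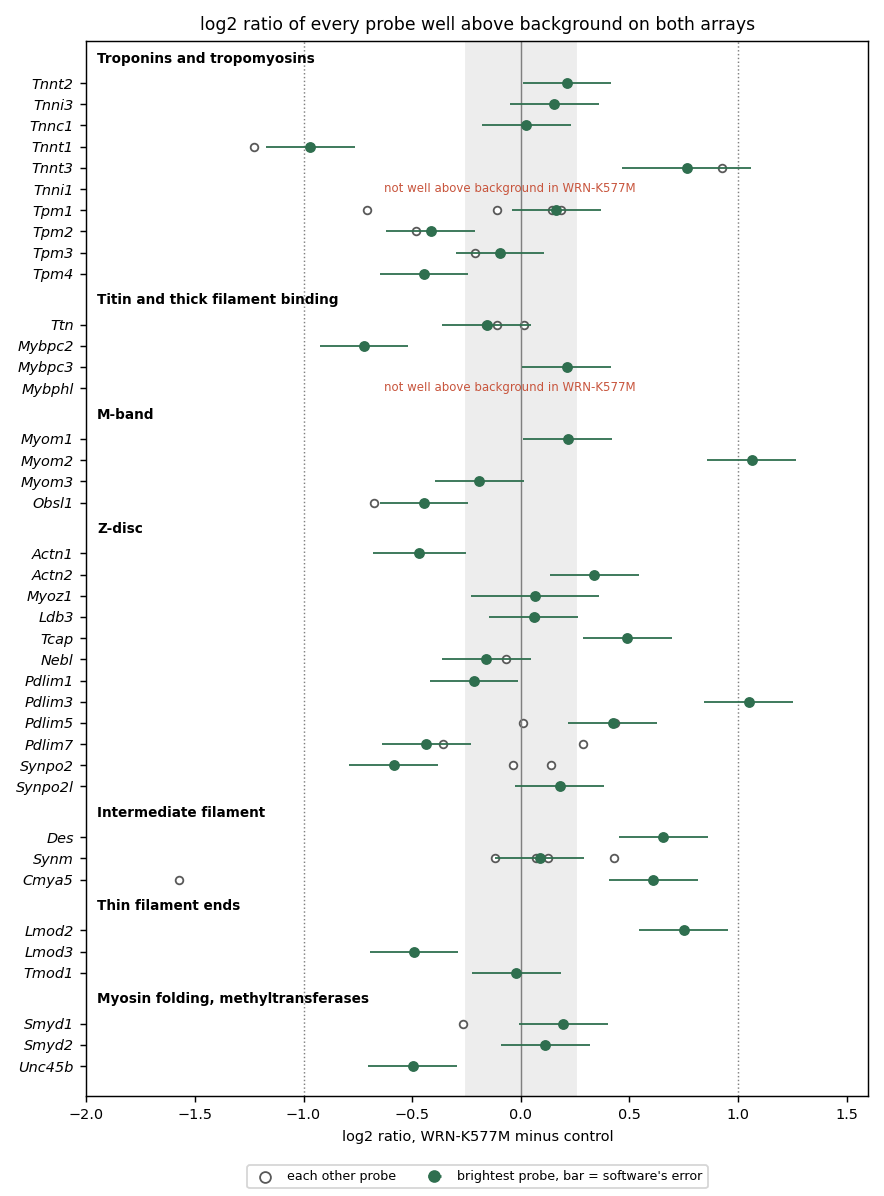
The log2 ratio (WRN-K577M minus control, 1 array each) of every probe of the sarcomere genes detected well above background on the 2 arrays. Filled points are the brightest probe with the software's error as a bar, open points are the other probes, the grey band is 2 SD between spots (0.25) and dotted lines mark 2-fold. The 2 probes of Cmya5 lie on opposite sides of 0, and those of Tnnt1 both lie near -1.

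Cardiac, slow and fast forms were set side by side. The 8 cardiac genes, Tnnt2, Tnni3, Tnnc1, Tpm1, Mybpc3, Actn2, Lmod2 and Myom1, had ratios from 0.026 to 0.75 with a median of 0.21. All 8 lay above 0, and 5 of the 8 did so with quantile normalization or cyclic loess. The grouping was made with earlier results of these data known. Tnnc1 is shared with slow muscle, and Actn2 and Myom1 are used by all striated muscle. Myom2 of heart and fast muscle (1.06) and the atrial gene Mybphl (at least 92.7-fold lower) are in none of the classes. The slow genes Tnnt1, Tpm3 and Myom3 had a median of -0.19, and 0 of these 3 lay above 0 under any setting. The fourth slow gene, Tnni1, has a bound on the same side that is smaller than the software's error for its probe. The fast genes Tnnt3, Mybpc2, Myoz1 and Tpm2 were split, with 2 above and 2 below 0 and a median of -0.17, and 1 lay above 0 with cyclic loess and 0 of the 2 left with the stricter filter on dim probes. Tpm2 is the beta-tropomyosin of skeletal and smooth muscle, so not a form of fast muscle alone. Without it, a choice made after seeing the data, the fast median was 0.066 over 3 genes. The sign of the fast median therefore rests on Tpm2. Bright genes as a whole had higher ratios: the 519 measured genes with a mean level of 6 or more had a median of 0.16, and 12 sarcomere genes among them had one of 0.21. With quantile normalization these medians were 0.039 and 0.087. At mean levels from 2 to 6, 17 sarcomere genes had a median of -0.16, beside 0.021 for all genes there. From -2 to 2, 6 sarcomere genes had a median of -0.33 beside 0.0032. Below -2, 2 sarcomere genes had a median of 0.41 beside 0.028.

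**Figure D3:**
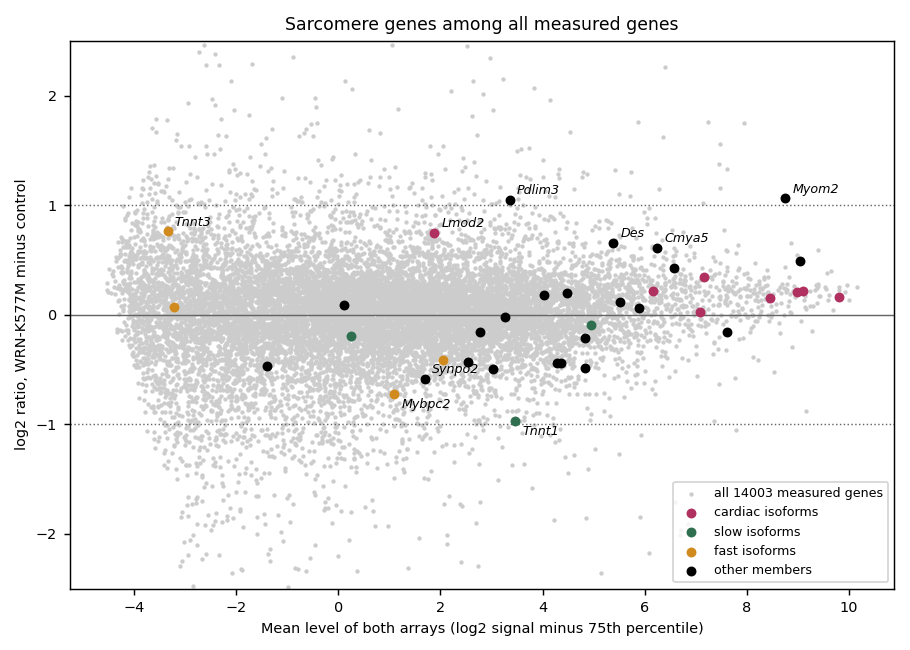
The log2 ratio (WRN-K577M minus control) against the mean level of both arrays for all 14003 measured genes in grey and the 37 measured sarcomere genes in colour, with 54 genes beyond 2.5 on either side not drawn and dotted lines at 2-fold. Myom2 and Pdlim3 lie above the upper line, and the cardiac forms other than Lmod2 lie at the bright end, where the cloud itself lies above 0.

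A difference between the ratios of related genes on the same arrays does not move with a single scale factor. The related genes were paired with earlier values of these data known, so the differences are a description. Tnnt1 differed from Tnnt2 by -1.18 with an error of 0.29, that is 2.27-fold, and by -1.31 to -1.04 over the alternatives. Mybpc2 differed from Mybpc3 by -0.93, with a range of -0.93 to -0.69. Tnnt3 differed from Tnnt2 by 0.55 with an error of 0.36 and a range of 0.31 to 0.69. Of these slow and fast relatives of cardiac forms, Tnnt3 therefore lay above its cardiac relative and the others below. For Tpm3 against Tpm1 the difference was -0.26 with an error of 0.29, no larger than its error. Actn1 differed from Actn2 by -0.81, between -0.81 and -0.59 over the alternatives.

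**Figure D4:**
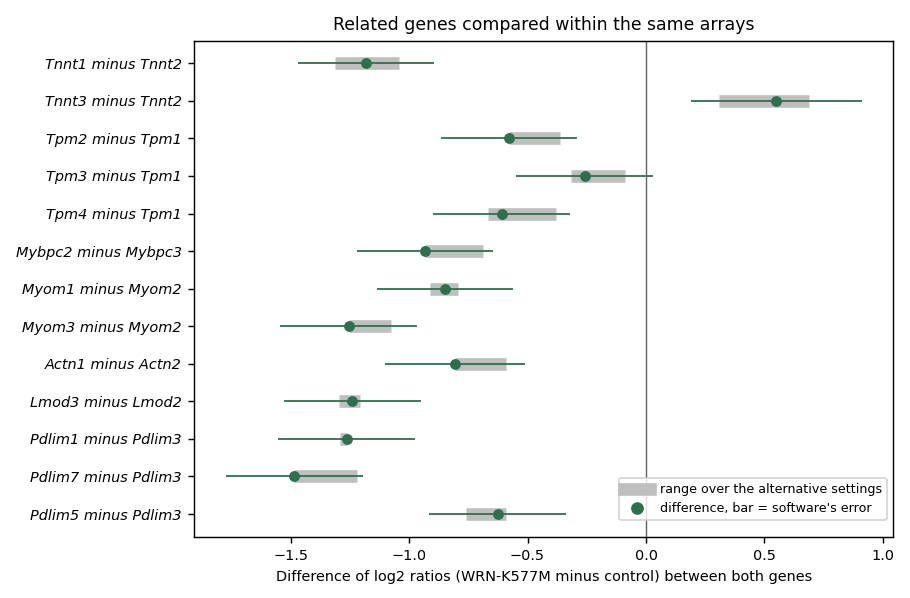
Difference between the log2 ratios (WRN-K577M minus control) of related sarcomere genes, each as the first gene minus the second. Points carry the software's error as a bar, and grey bars span the alternative settings. Tnnt3 minus Tnnt2 is the one difference drawn above 0, and Tpm3 minus Tpm1 is no larger than its error.

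Genes of troponin I and troponin T sit in the genome as pairs, and Tnnt1 and Tnni3 did not share a ratio. In the RefSeq table no protein-coding gene (0) lies between Tnnt1 and Tnni3 on chromosome 7, whose ratios were -0.97 and 0.15. On chromosome 1, with 1 protein-coding gene between them, Tnni1 was at least 1.67-fold lower, a bound near background, and Tnnt2 had a ratio of 0.21. Tnnt3, with 0.76 from a signal near background, lies near Tnni2, the fast troponin I gene. Tnni2 had levels of 0.95 and 0.79 and a ratio of -0.15. The neighbours Myoz1 and Synpo2l on chromosome 14 had ratios of 0.066 and 0.18.

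Markers of skeletal muscle were read for the slow and fast members. The fast skeletal myosin genes Myh1, Myh2 and Myh4 and the fast alpha-actinin gene Actn3 stood well above background on neither array. Of the 10 fast markers other than Tnnt3, the 6 measured had a median log2 ratio of -0.10. Myl1 had a ratio of -1.16 and Mylpf one of 0.79. The summed signal of all 11 fast markers was 52.8 (control) and 36.1 (WRN-K577M). Most of both sums came from Myl1 and Atp2a1, and most of the difference between the sums from Myl1. Myl1 had levels of 4.82 and 3.65, and Atp2a1 had a ratio of -0.055. Of the 6 genes listed as slow markers, the 4 that are not members had a median of 0.17. Whether these genes read slow skeletal muscle or heart muscle here was not tested. The summed signal of all 6 was 1177 and 1363, most of it from Myl3, a light chain that the ventricle shares, and 134 and 121 without it. Myh7, the slow myosin heavy chain, is not in that list and had a ratio of 3.91, opposite in direction to Tnnt1. Ventricular markers other than Lmod2 had a median of 0.18 over 5 genes, with summed signals of 2437 and 2816 for all 6. Lung epithelium markers had summed signals of 142 (control) and 10.7 (WRN-K577M), and 4 of the 6, Sftpc among them, were detected on the control array alone.

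Beyond the 39 genes, 57 other genes of the sarcomere and its attachments were listed, and 54 were measured. Their median log2 ratio was 0.21, 41 lay above 0, 3 were 2-fold or more higher, and 1 was 2-fold or more lower. Over all measured genes, 52.4% lay above 0, 1.94% were as much higher and 3.46% as much lower. The list of other sarcomere genes was chosen with earlier results of these data known, so its counts are a description. The number above 0 was 36 with quantile normalization or cyclic loess, while the numbers past 2-fold were 3 and 1 under every alternative. The largest were Myh7, the slow beta-myosin heavy chain, with levels of 5.66 and 9.57 and a ratio of 3.91, Ankrd1, a titin-bound stress protein, with 1.33, Pdlim4, another PDZ-LIM gene, with -1.21, and Xirp1, a protein of intercalated discs, with 1.12. Myh6, the alpha-myosin heavy chain of the adult mouse heart, had levels of 9.52 and 9.70.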

How the data were processed

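Per the submitters' processing notes, the authors used Agilent Feature Extraction 11.5.1.1 to make the intensity values, which per the file headers are background-subtracted and detrended but not scaled between arrays. Outlier, saturation and background flags are the software's other columns, per the file headers. The deposited matrix holds intensity equal to that signal times 4.12 (control) and 4.86 (WRN-K577M), with medians of 79.5 and 79.0, linear, not centred, in the same direction, and how the factors were chosen is unknown.

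Control spots and 257 outlier spots were left out, no spot (0) was saturated, and spots of a probe were averaged as log2. The 75th percentile over non-control spots was 256 and 210, and 55.2% and 52.9% of probes were well above background. The number of arrays limits the precision. RefSeq accessions named 28330 probes through a GRCm38.p6 table, and the array design uses mm9, so no probe positions are given. Members and gene lists were chosen with earlier results of these data known. Values are given in full for all troponins and tropomyosins, for members with a ratio of 0.5 or more in size, a bound or disagreeing probes, and for the 4 most different other sarcomere genes. Genes named beyond that rule were chosen after their values were seen. Alternatives are normexp (offset 50), quantile, cyclic loess, 2 other scale points, 2 dim-probe filters, the probe mean, the deposited matrix, and 1.5-fold and 3-fold thresholds. The stricter filter asked for 4 times the lowest detected signal. Counting was tested on simulated data. Python 3.11.15, numpy 2.4.6, pandas 2.3.3, matplotlib 3.10.9, R 4.3.3 and limma 3.58.1 were used.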

Additional observations from a re-analysis of the deposited data

How the results depend on the processing

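The number of sarcomere genes at least 2-fold higher was 2, and it was 1 after normexp (Myom2), with quantile normalization (Pdlim3) and with the deposited matrix (Myom2), and 0 with cyclic loess. The number at least 2-fold lower was 0, and it was 1 (Tnnt1) with cyclic loess, the median of all probes, the probe mean and the deposited matrix, and 2 (Mybphl and Tnni1) with no filter on dim probes. At 1.5-fold 6 were higher and 3 lower (5 and 2 without Cmya5 and Synpo2), and at 3-fold 0 were higher. The slow median moved from -0.19 to -0.58 with no filter, which adds Tnni1, and the fast median from -0.17 to -0.57 with the stricter filter, which leaves 2 of 4 genes, and to 0.066 without Tpm2, a choice made after seeing the data. The median over all members lay between -0.035 (quantile normalization) and 0.066, and was below 0 also with cyclic loess (-0.029) and the probe mean (-0.020). Of the single genes, 31 of 37 kept their sign under all 6 other scalings, the exceptions being Tnnc1, Tpm1, Ldb3, Tnni3, Mybpc3 and Myoz1. With the probe mean, Cmya5 had a ratio of -0.48. No paired analysis was possible because each group has 1 sample, and no sample could be left out. Signal near background limits Tnnt3, Tnni1, Myoz1 and the dim probes of Synm and Synpo2.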

Other observations

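The list of other sarcomere genes also holds ubiquitin ligases, chaperones and a protease of muscle, given here as values and chosen after their values were seen. Fbxo32, the ligase atrogin, had levels of 1.07 (control) and 1.98 (WRN-K577M), a log2 ratio of 0.91 that lay between 0.81 and 0.91 over the alternatives. The RING-finger ligase genes Trim63, Trim54 and Trim55 had ratios of 0.59, 0.69 and -0.19. Among the chaperones, Bag3 had a ratio of 0.61, Hspb1 of 0.34, Hspb7 of 0.27, Unc45a of 0.11 and Cryab of -0.15. Capn3, a calcium-dependent protease bound to titin, had a ratio of 0.11. Ratios of at least 1.5-fold higher were found for 6.76% of all measured genes.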
